A study of Mus musculus with 6 samples.

Results

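AP-1 is the transcription factor formed by proteins of the FOS and JUN families, and the EGR proteins are zinc-finger factors that are switched on by many of the same signals. The genes described here are the FOS genes Fos, Fosb, Fosl1 and Fosl2, the JUN genes Jun, Junb and Jund, and the EGR genes Egr1, Egr2 and Egr3. They were chosen by name, by matching the Ensembl identifiers of the count table to mouse symbols, and all 10 were found among its 54752 genes. NIH/3T3 cells, an established line of mouse embryonic fibroblasts, were grown in complete DMEM in 3 groups of 2 libraries, and total RNA was sequenced after removal of rRNA. The vehicle group received PBS for 72 h. The TGF-β1+DMSO group received TGF-β1 at 1 ng/ml with DMSO for 72 h, and the TGF-β1+BI6727 group received TGF-β1 at 1 ng/ml with 5 μM BI6727 (volasertib), an inhibitor of the kinase PLK1, for the same time. No library had DMSO without TGF-β1, so the effects of TGF-β1 and of DMSO on the difference from vehicle cannot be told apart. All groups are 1 cell line, and nothing in the labels says that the 2 libraries of a group came from separate cultures, so p-values measure only the spread between these libraries, which may be technical.

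FOS proteins bind DNA mainly as dimers with JUN proteins, at the TPA response element (TRE) and the related cyclic AMP response element (CRE), whereas JUN proteins can also pair among themselves. Fos, Fosb, Jun, Junb and the EGR genes are immediate-early genes: serum, growth factors and stress induce them within minutes through ERK, JNK and p38 kinases acting on SRF, its ETS-family partners and other factors, and most of the response is short-lived. EGR proteins bind GC-rich sites and are held in check by the corepressors NAB1 and NAB2, and in fibroblasts both families are known as targets and partners of TGF-β signalling. The libraries here were taken once, at 72 h, and hold no earlier time.

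Upstream sequences were looked up for the 10 genes in RefSeq promoter windows of the GRCm38.p6 assembly, each of 250 bases before to 50 bases after a start site, and 7 of the 10 genes had a window. Fosl1, Egr1 and Egr3 had none. The 250 bases before the start site are printed for Egr2 and Fos, which had the largest differences between groups in the results that follow. The Egr2 window is that of chr10:67537619-67537868, on the plus strand and before the start site at 67537869, inside the annotated span of the gene. The Fos window is chr12:85473640-85473889, on the plus strand. Capitals mark matches to the motifs searched.
Egr2: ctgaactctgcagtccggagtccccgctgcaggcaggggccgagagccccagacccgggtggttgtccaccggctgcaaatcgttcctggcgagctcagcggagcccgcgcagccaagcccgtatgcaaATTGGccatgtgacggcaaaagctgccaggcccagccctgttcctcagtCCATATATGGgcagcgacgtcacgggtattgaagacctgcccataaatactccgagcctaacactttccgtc
Fos: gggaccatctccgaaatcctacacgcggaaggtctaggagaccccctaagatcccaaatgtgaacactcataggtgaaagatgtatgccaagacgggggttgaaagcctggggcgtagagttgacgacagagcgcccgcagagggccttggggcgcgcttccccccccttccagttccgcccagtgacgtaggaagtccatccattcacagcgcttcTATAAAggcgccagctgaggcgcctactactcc
In the Egr2 sequence the longer run of capitals is a CArG box, the site bound by SRF, at bases -72 to -63 from the start site, and the shorter is a CCAAT box read on the other strand, at bases -121 to -117. A second, separate Egr2 window, before the start site at 67537566, held another CArG box at the same distance. Of the 5 Egr2 windows, 4 held one, but those that overlap share the box printed here. The capitals in the Fos sequence are a TATA box, TATAAA, at bases -33 to -28. Outside these, an EGR site (GCGTGGGCG or GCGGGGGCG) was found in the windows of Fosl2, at bases -79 to -71, and of Fosb, at bases -50 to -42, and a CCAAT box in those of Jun and Junb. The Junb window also held TATAAA, at bases 1 to 6, past the start site. Both strands were searched. Of all 32851 windows, 1.63% held a CArG box, 3.47% an EGR site, 13.6% TATAAA and 37.4% CCAAT. The CRE (TGACGTCA, in 1.79% of all windows) and the TRE (TGAGTCA, in 5.2%) were not among the letters of any window of the 7 genes. The Jund window, with its start site at 70697739, lies before the annotated span of that gene, which starts at 70698949. Its lack of matches therefore does not describe the bases just before that span. Each motif was searched only in the spelling used here and inside these windows, so variant sites and sites further away would not have been found. A match describes the letters of the sequence and does not show binding.

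The libraries held between 18362378 and 24452153 counts on genes. Levels are given as CPM (read counts scaled to a common library total) on library sizes scaled by edgeR's TMM method, and groups were compared by edgeR's quasi-likelihood test in 1 fit of all 6 libraries. Calls needed an adjusted p (Benjamini-Hochberg) below 0.01 together with a change of more than 2-fold, and a second, looser rule took any fold at an adjusted p below 0.05. The main fit held 9518 genes, those that reached 10 CPM in more than 3 of the libraries. Fos and Fosb missed that filter, and Egr2 passed it only through the libraries with TGF-β1, so all 10 genes were also tested in a fit of the 17936 genes with at least 10 counts in total. Values are from the main fit except for Fos and Fosb. All 8 fibroblast markers were detected, with summed levels between 8010 and 10453 CPM, whereas the summed levels of 5 epithelial, 4 endothelial and 6 blood cell markers were between 0.312 and 4.69 CPM in any library, and 2, 1 and 3 of these markers were at 0 in all 6 libraries. The 2 TGF-β1+DMSO libraries differed more from each other than did those of the other groups, with an SD across genes of their log2 difference of 0.377 against 0.163 for vehicle and 0.147 for TGF-β1+BI6727.

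The position of each gene is given once here, on mm10. Fos lies at chr12:85473890-85477273, Fosb at chr7:19302696-19310051, Fosl1 at chr19:5447703-5455945, Fosl2 at chr5:32135801-32157842, Jun at chr4:95049034-95052222, Junb at chr8:84974484-84978718, Jund at chr8:70698949-70700616, Egr2 at chr10:67535475-67542188 and Egr3 at chr14:70077203-70082614, while Egr1 lies on chromosome 18. All 10 are protein-coding genes counted over their exons.

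The comparison of TGF-β1+DMSO with vehicle asks how the fibroblasts differed after 72 h of TGF-β1 given with DMSO. Egr2 rose 6.0-fold, Fos fell 7.53-fold and Fosl2 fell 2.16-fold, while the other 7 genes did not pass the main rule. In the fit with all 10 genes, 1 was called higher and 2 lower, where 5.02% of the 17936 genes were called (2.3% higher and 2.72% lower). In the main fit, 1 of the 8 genes it held was called higher and 1 lower, where 5.1% of 9518 genes were called (2.56% higher and 2.53% lower). The groups did not overlap for 9 of the 10 genes. Of these, 6 were higher in TGF-β1+DMSO, as were 26.8% of all genes in that fit, and 3 were lower, as were 30%.

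**Figure D1:**
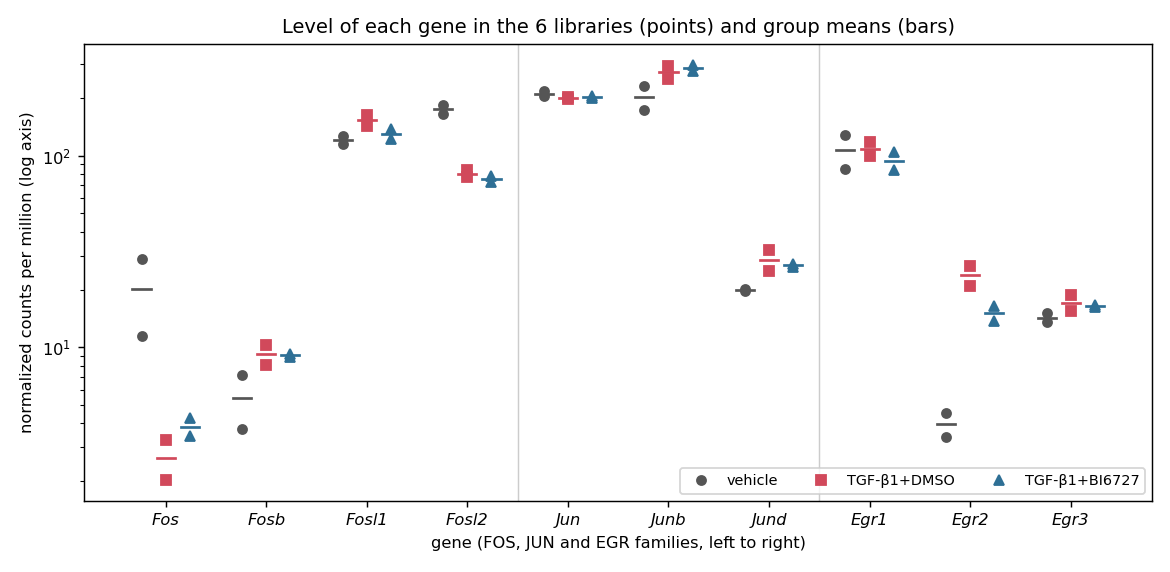
Normalized CPM of the 10 genes on a log axis, with 1 point per library and a bar at the mean of the 2 libraries of a group (circles vehicle, squares TGF-β1+DMSO, triangles TGF-β1+BI6727). Fos and Fosl2 stand lower, and Egr2 higher, in all 4 libraries with TGF-β1 than in both vehicle libraries, and the vehicle points of Fos lie far apart, at 29.0 and 11.5.

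Among the FOS genes, Fos, which encodes c-Fos, a strong activator when paired with c-Jun, had 29.0 and 11.5 CPM in the vehicle libraries and 2.03 and 3.27 CPM in the TGF-β1+DMSO libraries. Even the lower vehicle library was above both others. The log2 fold change was -2.91 (SE 0.42, 95% interval -3.85 to -1.98, edgeR adjusted p = 0.00132, fit of all 10 genes). The vehicle libraries themselves differed 2.52-fold in Fos, with a counting interval of 2.17 to 2.93 (95%, exact binomial), which covers counting error only and does not reach equal levels. Without vehicle replicate 1 the log2 fold change was -2.12, so the size of the fall rests in part on that library. The call was lost in that fit, and what changed it was not tested. The call was also lost, at -2.91 and -2.92, without TGF-β1+BI6727 replicate 1 (adjusted p = 0.0142) or replicate 2 (adjusted p = 0.0131), and at -2.90 in a fit of the 2 groups alone (adjusted p = 0.0115). In RNA from whole cultures, fewer cells that express a gene and less RNA per cell cannot be told apart.

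Fosl2, which encodes Fra-2, a FOS protein without the strong activation domain of c-Fos, had 184 and 164 CPM in vehicle and 83.7 and 77.6 CPM in TGF-β1+DMSO. Its groups were far apart and the replicates of each were close. The log2 fold change was -1.11 (SE 0.10, 95% interval -1.36 to -0.86, edgeR adjusted p = 0.000517). The fold stood close to the 2-fold minimum: after adjusting each library for its dependence on transcript length it was -0.94, and after adjusting for length and GC content -0.95, so the gene was no longer called although its adjusted p was 9.8e-05 and 8.7e-05. Without vehicle replicate 1 the log2 fold change was -1.03 and the adjusted p 0.0163.

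Fosl1 encodes Fra-1, the close relative of Fra-2, and went the other way in its values. It had 115 and 126 CPM in vehicle and 143 and 163 CPM in TGF-β1+DMSO, without overlap. Its log2 fold change of 0.34 (95% interval 0.07 to 0.61) had an adjusted p of 0.0702 and passed neither rule, although it passed the looser one without either TGF-β1+DMSO library. Fosb, an immediate-early gene with a truncated form known from chronic stimulation, was low throughout, at 7.17 and 3.73 CPM in vehicle and 8.11 and 10.3 CPM in TGF-β1+DMSO. Its log2 fold change was 0.78 (95% interval 0.14 to 1.41, adjusted p = 0.0929 in the fit of all 10 genes). As for Fos, the first vehicle replicate stood above the second, by 1.92-fold with a counting interval of 1.45 to 2.56. Of the 50-base windows of the Fosl1 transcripts, 52.6% also occur on the opposite strand of Ccdc85b transcripts in a newer Gencode release. In the annotation of the count table, however, the exons of Fosl1 overlapped those of no other gene. Ccdc85b had between 1767 and 2454 counts per library, and the strand setting of the counting is not given in the sources used here. It is therefore not known whether reads of Ccdc85b transcripts were counted for Fosl1.

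The JUN genes encode the main partners of the FOS proteins, and none of them passed the main rule. Jun itself had 216 and 205 CPM in vehicle and 198 and 201 CPM in TGF-β1+DMSO, a log2 fold change of -0.075 with a 95% interval of -0.28 to 0.13 and an adjusted p of 0.555. Junb, which often acts as a weaker activator than c-Jun and restrains it, had 229.7 and 174 CPM against 251 and 295 CPM. Its log2 fold change was 0.44 (95% interval 0.08 to 0.79, adjusted p = 0.0776). Over 16 alternatives that adjusted p ran from 0.000277 to 0.392, and Junb passed the looser rule under DESeq2, after adjusting for length, with no filter and without either TGF-β1+DMSO library. Both TGF-β1+DMSO libraries lay above both vehicle libraries, but the vehicle libraries differed 1.32-fold between themselves. Jund, the JUN gene that is expressed more steadily than the others and is not a typical immediate-early gene, had 20.2 and 19.7 CPM in vehicle and 25.1 and 32.2 CPM in TGF-β1+DMSO. At a log2 fold change of 0.52 (95% interval 0.16 to 0.89) and an adjusted p of 0.0487 it passed the looser rule only, which 11% of all genes in the main fit passed in that direction. Over 16 alternatives that adjusted p ran from 0.000281 to 0.232, and it was above 0.05 without either vehicle library, TGF-β1+DMSO replicate 2 or either TGF-β1+BI6727 library, in a fit of the 2 groups alone and after adjusting for length and GC content, as well as with a block for replicate number. Of the exon length of Jund, 52.6% is overlapped in the annotation by Gm11175 on the other strand, which had 0 counts in every library. As the strand setting is not given, this 0 does not show how reads over the overlap were assigned. The level of Jund may be affected by it. The overlaps of Jun with Junos (7.28%) and of Junb with Prdx2 (7.52%) are small.

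Egr2, which encodes a factor known for myelination by Schwann cells and hindbrain patterning and is also induced by serum in fibroblasts, had 4.52 and 3.41 CPM in vehicle and 26.5 and 21.0 CPM in TGF-β1+DMSO. The raw counts behind these were 87 and 75 against 548 and 436. The log2 fold change was 2.58 (SE 0.21, 95% interval 2.08 to 3.09, edgeR adjusted p = 0.000324), and 2.60 in the fit whose filter does not look at groups (adjusted p = 4.2e-05). No other of the 10 genes was called higher. Without vehicle replicate 2 the log2 fold change in the main fit was 2.39 and the adjusted p 0.0105, just above the 0.01 threshold.

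Egr1, which is known to be induced early by serum and TGF-β in fibroblasts, had 128 and 85.1 CPM in vehicle and 100.1 and 117 CPM in TGF-β1+DMSO. The TGF-β1+DMSO values lay between those of the vehicle replicates, which differed 1.5-fold (counting interval 1.41 to 1.59). The log2 fold change was 0.031 (95% interval -0.44 to 0.50, adjusted p = 0.922), and without vehicle replicate 2 or TGF-β1+DMSO replicate 2 it was -0.23 or -0.075. Egr3, a relative that binds similar sites, had 13.5 and 15.1 CPM against 18.8 and 15.4 CPM, a log2 fold change of 0.26 (95% interval -0.11 to 0.63, adjusted p = 0.263). Egr4, the remaining member of the family, had 0 counts in all 6 libraries.

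**Figure D2:**
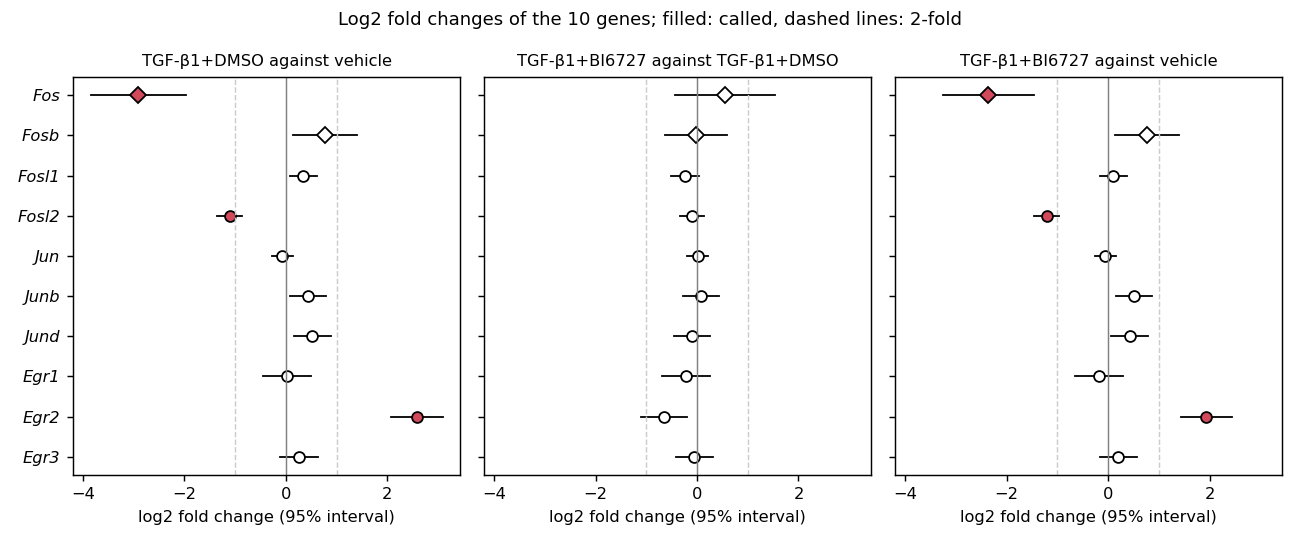
Log2 fold changes of the 10 genes in the 3 comparisons, with 95% intervals derived from edgeR's test statistic. Dashed lines mark a fold change of 2, and filled symbols mark called genes. Diamonds are Fos and Fosb, from the fit of genes with at least 10 counts in total. Fos at -2.91, Fosl2 at -1.11 and Egr2 at 2.58 are filled against vehicle, and no symbol is filled in the middle panel.

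The comparison of TGF-β1+BI6727 with TGF-β1+DMSO asks what the PLK1 inhibitor changed in cells that were given TGF-β1. None of the 10 genes was called. In the fit of all 10 genes 0.0112% of genes were called, and in the main fit 0 genes (a background of 0%), where the smallest adjusted p over all 9518 genes was 0.0565. At an unadjusted p below 0.05 there was 1 of the 8 genes of the main fit, Egr2, against 6.68% of all genes. DESeq2 also called 0 of the members. The BI6727 libraries were both above the DMSO libraries for Fos (16.7% of all genes) and both below for Fosl1 and Egr2 (17.8%).

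Egr2 had 13.7 and 16.4 CPM with BI6727, below both TGF-β1+DMSO libraries at 26.5 and 21.0 and above both vehicle libraries. The log2 fold change was -0.65 (95% interval -1.10 to -0.20, unadjusted p = 0.0107, edgeR adjusted p = 0.62), so it did not hold after adjustment. Over 16 alternatives the log2 fold change stayed between -0.82 and -0.47. Its adjusted p was lowest, at 0.00825, without TGF-β1+DMSO replicate 2, where the log2 fold change of -0.82 was under the 2-fold minimum, and above 0.05 under the other 15.

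Fosl1 had 122 and 138 CPM with BI6727, below the 143 and 163 CPM of TGF-β1+DMSO, a log2 fold change of -0.24 (95% interval -0.50 to 0.030, adjusted p = 0.747; 0.0103 without TGF-β1+DMSO replicate 1). Fos had 3.45 and 4.26 CPM, just above the 2.03 and 3.27 CPM of TGF-β1+DMSO, a log2 fold change of 0.55 with a 95% interval of -0.44 to 1.55 (adjusted p = 0.878), too wide to exclude a 2-fold rise. Its counts were 62 and 103 with BI6727 and 42 and 68 with DMSO. The other members gave narrower bounds. For Jun, at 205 and 199.6 CPM, the 95% interval of the log2 fold change was -0.19 to 0.22, and for Fosl2, at 72.5 and 78.0 CPM, it was -0.34 to 0.15. Those for Junb (298 and 277 CPM; -0.28 to 0.43), Jund (26.1 and 27.3 CPM; -0.46 to 0.26) and Egr3 (16.7 and 16.2 CPM; -0.42 to 0.31) exclude a 2-fold change as well. Egr1, at 84.3 and 104 CPM, had an interval of -0.68 to 0.26, and Fosb, at 8.90 and 9.23 CPM, one of -0.63 to 0.60.

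Set against the vehicle libraries, which this comparison shares with that of TGF-β1+DMSO, Egr2 was called higher and Fos and Fosl2 lower in the TGF-β1+BI6727 group. In the fit of all 10 genes 1 was higher and 2 lower, where 5.18% of genes were called (2.05% higher and 3.13% lower). In the main fit 1 was higher and 1 lower, where 5.31% were called (2.34% higher and 2.96% lower). The log2 fold change of Egr2 was 1.93 (SE 0.22, adjusted p = 0.000985), next to 2.58 in TGF-β1+DMSO. That of Fosl2 was -1.21 (SE 0.11, adjusted p = 0.000346), next to -1.11, and that of Fos was -2.36 (SE 0.40, adjusted p = 0.00325), next to -2.91. Junb, at a log2 fold change of 0.51 (adjusted p = 0.0466), passed the looser rule, as did 11.3% of genes in that direction, but not without either vehicle library or either BI6727 library, and Jund, at 0.42 (adjusted p = 0.0894), did not. The call of Fos was lost without vehicle replicate 1 (-1.57, adjusted p = 0.0368) and without either BI6727 library (-2.22 and -2.53, adjusted p = 0.0948 and 0.0709). Those of Fosl2 and Egr2 were lost by a smaller margin: Fosl2 without vehicle replicate 1 (adjusted p = 0.0109) or BI6727 replicate 1 (0.0105), and Egr2 without vehicle replicate 1 (0.0148), vehicle replicate 2 (0.0217) or BI6727 replicate 2 (0.0131).

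Levels of different genes can be compared only per length, here as RPKM on the exon length of the count table. The order depends on that length: per coding length, Jun stood above Junb and Fosl2 above Fosl1 in vehicle. Whether reads of Ccdc85b transcripts were counted for Fosl1 is not known, which also limits the level of Fosl1. On exon length, Junb was the most abundant of the 10 in every group, at 87.7 ± 17.2 RPKM (SD, n = 2) in vehicle, 119 ± 13.3 in TGF-β1+DMSO and 125 ± 6.55 in TGF-β1+BI6727. Fosl1 followed, at 70.7 ± 4.48, 89.6 ± 8.19 and 76.1 ± 6.68 RPKM, and then Jun, at 66.0 ± 2.57, 62.6 ± 0.772 and 63.4 ± 1.11 RPKM. In vehicle the RPKM of Fosl1 and Jun overlapped. Egr1 was next in each group, at 23.7 ± 6.73, 24.2 ± 2.72 and 21.0 ± 3.09 RPKM, and in vehicle it overlapped with Fosl2 at 18 ± 1.44 RPKM. In vehicle Fos, at 8.61 ± 5.25 RPKM, overlapped with Jund above it, at 11.9 ± 0.230, and stood above Egr3 at 3.24 ± 0.250 and Egr2 at 1.17 ± 0.230. With TGF-β1 this lower part of the order changed: Egr2 stood above Egr3 and Fos in both groups, at 6.98 ± 1.14 RPKM with DMSO and 4.43 ± 0.572 with BI6727. Fos was then at 1.13 ± 0.375 and 1.64 ± 0.245 RPKM, overlapping with Fosb.

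Within the FOS family, the share of summed RPKM taken by Fos was 12.3% and 5.08% in the vehicle libraries and between 0.911% and 1.97% in the 4 libraries with TGF-β1. Fosl2 took 19.0% and 17.6% in vehicle and between 7.53% and 9.16% with TGF-β1. Fosl1 took 67.5% and 76.7% in vehicle and between 87.3% and 89.6% with TGF-β1, although its own level passed neither rule. The summed RPKM of the family stayed between 81.7 and 106 over the 6 libraries. In the EGR family, Egr2 took 4.04% and 4.29% in vehicle, 22.7% and 17.2% in TGF-β1+DMSO and 15.1% and 15.3% in TGF-β1+BI6727. Egr1 took 86.6% and 81.1% in vehicle and between 64.9% and 73.1% with TGF-β1. In the JUN family, Junb took 55.5% and 49.8% in vehicle and between 58.6% and 61.9% with TGF-β1, and Jun 37.7% and 42.4% against 30.0% to 33.3%. These shares are descriptions, since 2 libraries against 2 allow no exact permutation p under 0.333. They depend on the length used: per coding length, Fosl2 with 51.0% stood above Fosl1 with 42.4% in vehicle, and Jun with 49.6% above Junb with 45.8%, while with TGF-β1+DMSO Fosl1 led with 66.5% and Junb with 53.7%.

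**Figure D3:**
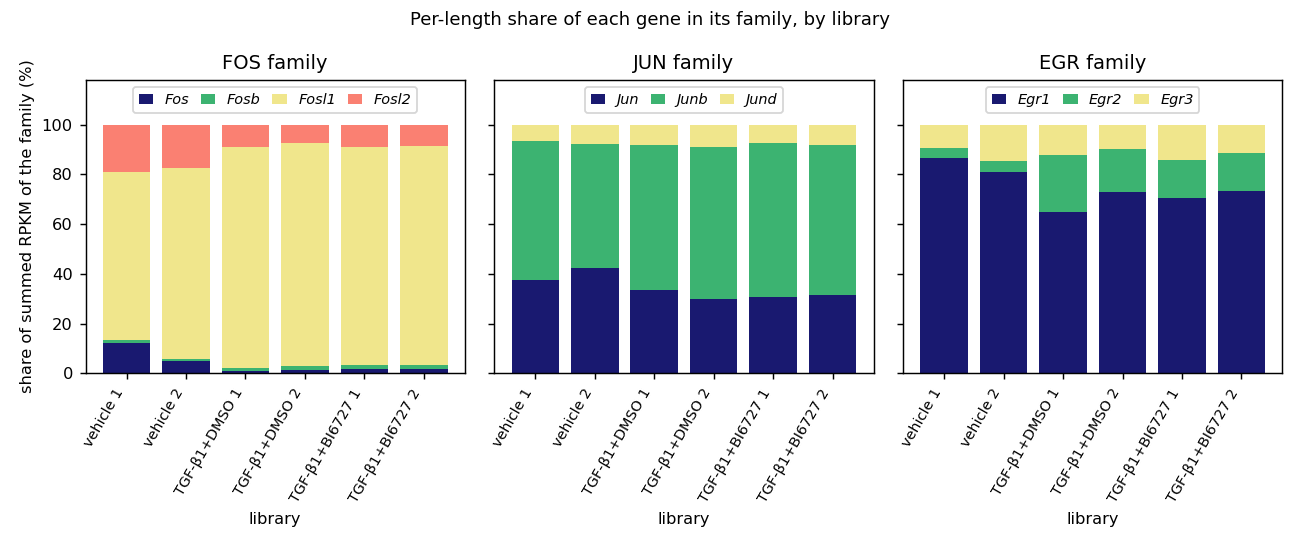
Share of each gene in the summed RPKM of its family in percent, stacked to 100 for each of the 6 libraries. The Fosl2 and Fos segments are smaller, and the Egr2 segment larger, in the 4 libraries with TGF-β1 than in both vehicle libraries, where Egr2 took 4.04% and 4.29%.

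The genes around these factors were read from 7 lists chosen by role and with earlier results of these data known, so their counts are descriptions. As the background for TGF-β1+DMSO against vehicle, 5.1% of all genes were called and the median log2 fold change over all genes was -0.0045. Of 10 tested bZIP genes that partner or compete with AP-1, 3 rose and 1 fell, with a median of 0.44. Atf3, a stress-induced repressor, rose from 4.26 and 5.05 CPM to 16.1 and 27.7 CPM (log2 fold change 2.23, SE 0.28, adjusted p = 0.00175), and the small MAF genes Maff and Mafk rose by 1.65 and 1.02. Cebpb, a regulator of inflammation and fat cell differentiation, fell by 1.12, from 205 and 185 CPM to 86.7 and 93.3 CPM. The 10 CPM filter keeps genes that reached this level only in the 4 libraries with TGF-β1, as Atf3 and, below, Hbegf did. It drops genes that reached it only in the 2 vehicle libraries, so it favours rises over falls against vehicle. In the fit of genes with at least 10 counts in total, 3 of 12 bZIP genes rose and 2 fell. Of the EGR corepressors, Nab1 and Nab2 were tested and neither was called (list median -0.14). Nab2, itself a known EGR target, had a log2 fold change of -0.32 (adjusted p = 0.0843).

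Upstream, 1 of 21 tested genes of SRF, its partners and the kinases rose and none fell, with a median of -0.0033. That gene was Map2k1, which encodes the ERK kinase MEK1, at 124 and 123 CPM in vehicle and 249 and 256 CPM in TGF-β1+DMSO (log2 fold change 1.03, SE 0.09, adjusted p = 0.000344). Of 29 other immediate-early genes, 7 rose and 2 fell (median 0.12). In the fit of genes with at least 10 counts in total, 7 of 34 rose and 3 fell. The largest rises in the main fit were Gadd45g, a growth arrest gene, at 2.72, Ptgs2, which encodes COX-2, at 1.77, Csrnp1 at 1.49 and Plk3, a kinase related to PLK1, at 1.30. Socs3, an inhibitor of cytokine signalling, fell by 1.34. Calls in this list went in both directions.

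Of 17 tested textbook AP-1 target genes, 9 rose and 2 fell, with a median log2 fold change of 1.36. Among those that rose were Hbegf (3.06), Il11 (2.93) and Vegfa (2.59), which encode an EGF receptor ligand, a profibrotic cytokine and an angiogenic factor. Some genes of the list are also known targets of TGF-β signalling itself, so the list is not specific to AP-1. Of 13 tested textbook EGR1 targets, 5 rose and 1 fell, while the median was -0.21. Fgf2 (2.21), Pdgfa (2.04) and Thbs1 (1.99) were among those that rose, and Ptges, a prostaglandin E synthase, fell by 1.28. Of 10 heat-shock genes, included as a sign of stress, none rose under the main rule and 1, Hspa1b, fell by 1.16 (median 0.16). Dnajb1 passed the looser rule only, with a rise of 0.65 (edgeR adjusted p = 0.00304).

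**Figure D4:**
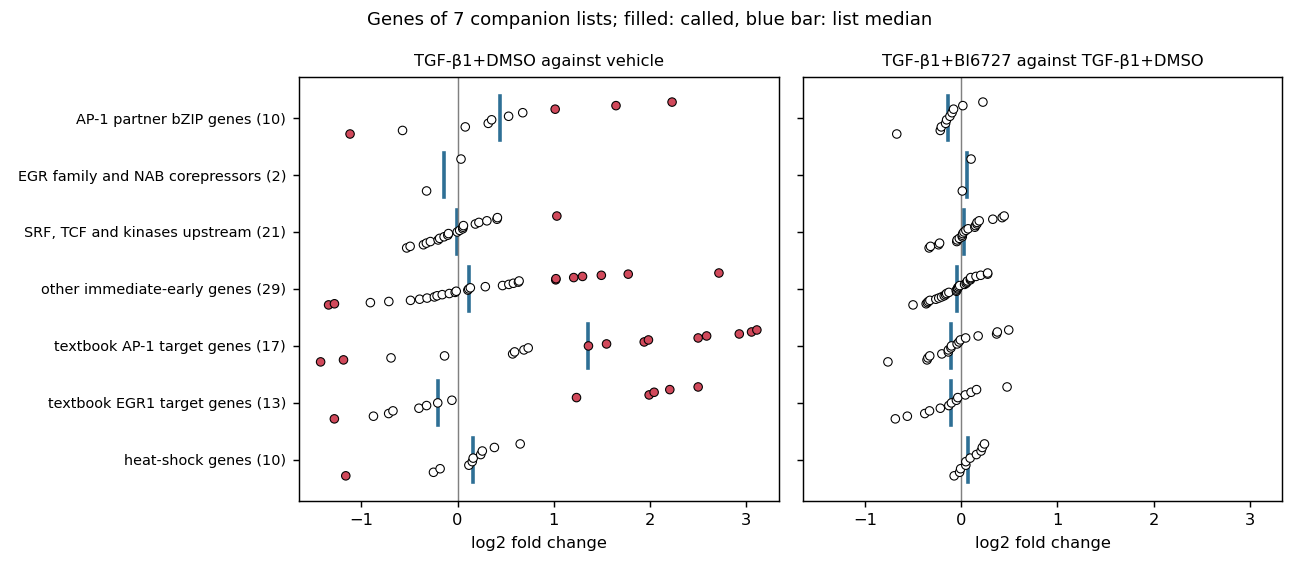
Log2 fold changes of the tested genes of 7 companion lists (number of genes in brackets), 1 point per gene, filled where called, with a bar at the list median, for TGF-β1+DMSO against vehicle (left) and TGF-β1+BI6727 against TGF-β1+DMSO (right). Most filled points on the left belong to the AP-1 target and immediate-early lists, and no point on the right is filled.

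Between TGF-β1+BI6727 and TGF-β1+DMSO none of the tested genes of the 7 lists was called by edgeR under either rule, and the list medians lay between -0.14 and 0.070. The genes with the smallest p in each list were Atf3 (-0.67, adjusted p = 0.711), Nab2 (0.10, 0.885), Mapk8 (0.45, 0.598), Ccn1 (-0.36, 0.606), Ccl2 (-0.76, 0.388), Ptges (0.48, 0.569) and Hspa8 (0.22, 0.722), all as log2 fold changes with edgeR adjusted p. Against vehicle, where 5.31% of all genes were called (2.34% higher and 2.96% lower), the TGF-β1+BI6727 group had 2 of 10 tested bZIP genes higher and 1 lower, and 1 of 21 upstream genes higher. Of 29 other immediate-early genes 5 were higher and 2 lower, of 17 AP-1 targets 10 were higher and 3 lower, and of 13 EGR1 targets 4 were higher and 1 lower. There was no call among Nab1, Nab2 and the 10 heat-shock genes. Atf3 was then at 1.56, Map2k1 at 1.04, Ptgs2 at 1.93, Hbegf at 2.95 and Fgf2 at 1.99. Dnajb1, a heat-shock gene that passed the looser rule in both groups with TGF-β1, was at 0.74 (edgeR adjusted p = 0.00163), next to 0.65 in TGF-β1+DMSO. The EGR1 target F3, which encodes tissue factor, fell by 1.40 (adjusted p = 0.00153).

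Finally, for the 3 members of the main fit with the largest fold changes between any groups, the tested genes with the most similar profile were found by the Euclidean distance between centred log2 CPM over the 6 libraries. For Egr2 these were Creb3l1 (distance 0.342) and Wnt9a (0.397), where the median gene stood at 2.73. Creb3l1, a membrane-bound bZIP factor, had 7.84 and 6.55 CPM in vehicle, 41.7 and 29.1 in TGF-β1+DMSO and 22.1 and 26.4 in TGF-β1+BI6727. For Fosl2 they were Chst12 (0.0865) and Sirpa (0.142), against 1.39 for the median gene, and for Jund Prkrip1 (0.0512) and Snapc2 (0.0835), against 0.732. The 6 libraries fall into 3 groups, so genes with the same order of groups lie close by this measure.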

How the data were processed

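RNA was sequenced from 6 libraries of NIH/3T3 cells on a BGISEQ-500. The authors mapped the reads to mm10 with Subjunc, counted them on Gencode M20 genes with featureCounts 1.6.4 and deposited whole-number counts per gene without normalization; the strand setting is not given in the sources used here. The deposited exon length per gene was used for RPKM. Groups and replicate numbers came from the sample labels. The members and lists were chosen with earlier results of these data known.

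From the counts, 54723 of 54752 identifiers were matched to symbols. Genes that reached 10 CPM in more than 3 of the libraries (9518) and, separately, genes with at least 10 counts in total (17936) were tested in R 4.3.3 with edgeR 4.0.16 (TMM, quasi-likelihood test, all 6 libraries, 3 residual degrees of freedom), with Benjamini-Hochberg adjustment over all genes tested. With library totals of 18362378 to 24452153 counts, counting intervals (exact binomial, 95%) cover counting error only. The SE of a log2 fold change was derived as its absolute value over the square root of edgeR's F statistic. Its 95% interval used a t quantile on the total degrees of freedom of that test. The fits were tested on simulated data.

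Named genes were all 10 members, up to 5 called genes with the largest fold change in each of 7 lists and each comparison (or the gene with the smallest p), and the 2 genes nearest in profile to 3 members. A few genes in the closing section were chosen after their values were seen. The lists were AP-1 partner bZIP genes, EGR family and NAB corepressors, SRF with partners and kinases upstream, other immediate-early genes, textbook AP-1 targets, textbook EGR1 targets and heat-shock genes.

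Alternatives were DESeq2 1.42.0, its size factors, other filters, a fit of just the pair of groups at issue, a block for replicate number, length offsets (lowess, span 0.3), the looser rule, other gene lengths and each library left out in turn. A crossed block, length and GC offsets, the longest protein-coding transcript and the repeats in the fit of all 10 genes were added after the data were seen. Replicate numbers were not taken as pairs. Other experiments of the study were not analysed here. Some genes that the naming rule selects are not reported here.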

Additional observations from a re-analysis of the deposited data

How the results depend on the processing

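The calls of Egr2, Fosl2 and Fos against vehicle held under DESeq2, DESeq2's size factors and the other filters, and no member was called between TGF-β1+BI6727 and TGF-β1+DMSO under any alternative run. The deviations of same-numbered replicates correlated across genes at -0.11 (TGF-β1+DMSO with vehicle), -0.26 (BI6727 with DMSO) and 0.047 (BI6727 with vehicle). With 2 libraries a group, these values cannot settle which libraries, if any, were handled together. With the replicate block, 2 members stayed called in each comparison with vehicle in the main fit, 3 in the fit of all 10 genes, and 0 in the comparison of BI6727 with DMSO, and a crossed block, in which the numbers of the TGF-β1+DMSO libraries were exchanged, gave the same counts of 2, 3 and 0. With the replicate block, the looser calls of Jund for DMSO (adjusted p = 0.0745) and of Junb for BI6727 (adjusted p = 0.0696) were lost. With the crossed block, in the main fit, that of Jund for DMSO was also lost and Junb for DMSO passed the looser rule. With length offsets, or with length and GC offsets, 1 member in place of 2 was called in TGF-β1+DMSO against vehicle, since Fosl2 fell under the 2-fold minimum.

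With single libraries left out, some calls of members against vehicle were lost. For TGF-β1+DMSO the log2 fold change then ran from 2.39 to 2.79 for Egr2, -1.19 to -1.03 for Fosl2 and -3.43 to -2.12 for Fos. For TGF-β1+BI6727 it ran from 1.74 to 2.14, -1.29 to -1.13 and -2.88 to -1.57 in the same order. A group of 1 library leaves fewer degrees of freedom and is assumed to vary like the others. What changed the calls was not tested. Over all genes, the 485 calls of TGF-β1+DMSO against vehicle became 1231 with no filter, 874 with filterByExpr, 901 with at least 10 counts in total, 2186 under the looser rule and 127 to 792 with a library left out. The 505 calls of TGF-β1+BI6727 against vehicle became 1276, 908, 929, 2333 and 163 to 537 in the same order. The 0 calls of TGF-β1+BI6727 against TGF-β1+DMSO became 11 with DESeq2, 6 with length offsets, 6 with length and GC offsets, 47 with no filter, 2 with at least 10 counts in total and 0 to 61 with a library left out; beyond the construction of these alternatives the cause was not tested.

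The direction of some values that passed no rule turned. Between BI6727 and DMSO, the log2 fold change of Fosb was 0.010 with the crossed block, 0.14 without TGF-β1+DMSO replicate 2 and 0.00923 without TGF-β1+BI6727 replicate 1 (range with a library left out -0.17 to 0.14); Jun was -0.0012 without TGF-β1+BI6727 replicate 1 (range to 0.038); without TGF-β1+DMSO replicate 1, Junb was -0.034 (range to 0.18) and Egr3 0.095 (range from -0.21); and Jund was 0.036 with length and GC offsets and 0.077 without TGF-β1+DMSO replicate 2 (range from -0.27). Against vehicle, Egr1 was -0.23 without vehicle replicate 2 and -0.075 without TGF-β1+DMSO replicate 2 for DMSO (range to 0.35), and 0.14 without vehicle replicate 1 for BI6727 (range from -0.44). Counts were low for Fos (42 to 558 per library), Fosb (82 to 223) and, in vehicle, Egr2 (75 and 87).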

Other observations

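In the fit of genes with at least 10 counts in total, some genes of the lists that the 10 CPM filter had left out also passed the main rule in TGF-β1+DMSO against vehicle, and they are named here after their values were seen. Over all 17936 genes of that fit 5.02% were called, 2.3% higher and 2.72% lower. All 24 AP-1 targets were then tested, of which 12 rose and 2 fell, the added ones being the collagenase gene Mmp13, from 0.104 and 0.364 CPM to 4.59 and 4.28 CPM (edgeR adjusted p = 0.000173), the stromelysin gene Mmp10, from 0 and 0.091 CPM to 1.83 and 2.07 CPM (adjusted p = 0.000886), and the cytokine gene Il6, from 6.02 and 3.69 CPM to 11 and 16.1 CPM (adjusted p = 0.00466). Zfp36, an immediate-early gene for an mRNA decay factor, fell from 38.4 and 23.0 CPM to 8.84 and 11.4 CPM (log2 fold change -1.59, adjusted p = 0.00185), and Maf fell from 12.5 and 9.01 CPM to 3.86 and 2.65 CPM (-1.71, adjusted p = 0.00237). With BI6727, Zfp36 was at 7.45 and 8.36 CPM and Mmp13 at 4.39 and 4.02 CPM. Mmp13 and Mmp10 were near 0 CPM in vehicle, so the size of their rises is uncertain. Mmp10 passed the filter of this fit only through the libraries with TGF-β1.

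The 2 libraries of a group differed from each other in several of these factors. In vehicle, 8 of the 10 members were higher in replicate 1 than in replicate 2, with a median log2 difference of 0.28, where 49.9% of all 9518 genes were higher. Fos differed 2.52-fold, Fosb 1.92-fold, Egr1 1.5-fold and Junb 1.32-fold. Among the other immediate-early genes 17 of 29 were higher in vehicle replicate 1 (median 0.17), as were Dusp1 (51.3 against 29.0 CPM) and Ier2 (113 against 79.9 CPM), both named after their values were seen. The AP-1 targets did not lean that way, with 7 of 17 higher in vehicle replicate 1 (median -0.064), nor did the bZIP genes, with 5 of 10. Between the TGF-β1+DMSO libraries the members leaned to replicate 2: 3 of 10 members were higher in replicate 1 (median log2 difference -0.21), as were 6 of 29 other immediate-early genes (median -0.083) and 3 of 17 AP-1 targets (median -0.19), where 51.2% of all genes were. Between the TGF-β1+BI6727 libraries 3 of 10 members (median -0.086), 9 of 29 immediate-early genes (median -0.049) and 2 of 17 AP-1 targets (median -0.11) were higher in replicate 1, where 49.7% of all genes were. Genes of the same 2 libraries are not independent, so the counts are descriptions, and what moved with these differences was not tested.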
